A study of Mus musculus with 2 samples.

Results

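The Hox genes of clusters A to D were examined in DNase-seq data from mouse spleen. The members were the 38 Hox genes listed by name and matched in the GENCODE M21 annotation of mm10, out of 21938 protein-coding genes: 10 on chromosome 6 (Hoxa), 10 on chromosome 11 (Hoxb), 9 on chromosome 15 (Hoxc) and 9 on chromosome 2 (Hoxd). A gene's promoter was taken as all bases within 500 bp of any of its annotated transcription start sites (TSSs). For each cluster, sites were followed from the first to the last member with 20 kb added on each side. All samples formed 1 group: spleen tissue of male B6CASTF1/J mice aged 10 days, the progeny of a C57BL/6 by CAST/EiJ cross, with 2 biological replicates that carry the same donor identifier. No treatment, genotype or age was compared, so every value below is a description over 2 libraries and no test was made.

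Hox genes encode homeodomain transcription factors that give cells their position along the head-to-tail axis of the embryo. Their order along the chromosome matches the order in which they come on along that axis, with low-numbered paralogues active towards the head and high-numbered ones towards the tail and in the distal limb. Polycomb complexes keep the clusters silent where they are not used, Trithorax and MLL complexes keep used genes active, and CTCF-bound sites inside the clusters separate silent from active stretches. In blood formation, several Hoxa and Hoxb genes of the central and posterior groups are used by stem and progenitor cells, and most are turned down as cells mature.

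DNase I cuts DNA in nuclei where it is exposed, and a peak marks a stretch with a high density of cuts. The signal of a peak is the cut density the authors deposited, scaled by a constant of unknown size for its library, and signals are therefore compared within 1 library at a time. Replicate 1 held 130476 peaks with a median signal of 0.578, and replicate 2 held 95847 with a median of 0.553. The tissue label was checked on promoters of cell type markers. Both libraries had promoter peaks at all 7 B cell genes and all 6 red cell genes listed, among them Cd22 with 5.71 and 2.34 and Tfrc with 24.1 and 9.04 in replicates 1 and 2. Of the spleen mesenchyme genes, 4 of 8 had one, with 5.68 and 2.86 at Col1a1, and 4 had one in replicate 1 only. T cell genes had 2 of 4, macrophage genes 3 of 5, endothelial genes 2 of 4, pancreas genes 2 of 4 (4.96 and 4.19 at Cela1) and liver genes 0 of 4. For scale, 60.7% of all protein-coding genes were open by the same rule. Among these marker lists, those of B cells and red cells (100% each) lay above that share. The macrophage list (60%) lay near it. The mesenchyme, T cell, endothelial and pancreas lists (50% each) and the liver list (0%) lay below it. The tissue was measured in bulk, so a site open in few cells and a site weakly open in many cannot be told apart, and the part of each cell type in the Hox signals was not tested.

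Few Hox promoters were open in both libraries. A promoter peak was present in both for 8 of the 38 genes (21.1%), against 60.7% of all protein-coding genes. Those 8 were Hoxa4, Hoxa7, Hoxa9, Hoxa10, Hoxb4, Hoxb5, Hoxc5 and Hoxc10. A further 13 (34.2%) had a promoter peak in replicate 1 only, against 6.92% of protein-coding genes, and none had one in replicate 2 only, against 0.593%. The remaining 17 (44.7%) had no promoter peak in either library, against 31.8%. The median promoter signal over the 38 genes, with no peak counted as 0, was 0.334 in replicate 1 and 0 in replicate 2, against 1.59 and 0.741 over all protein-coding genes. In each library 5 of the 38 lay above that library's protein-coding median. Replicate 1 taken alone opened 21 of the 38 promoters and replicate 2 alone 8, so the count depends on replicate 2.

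**Figure D1:**
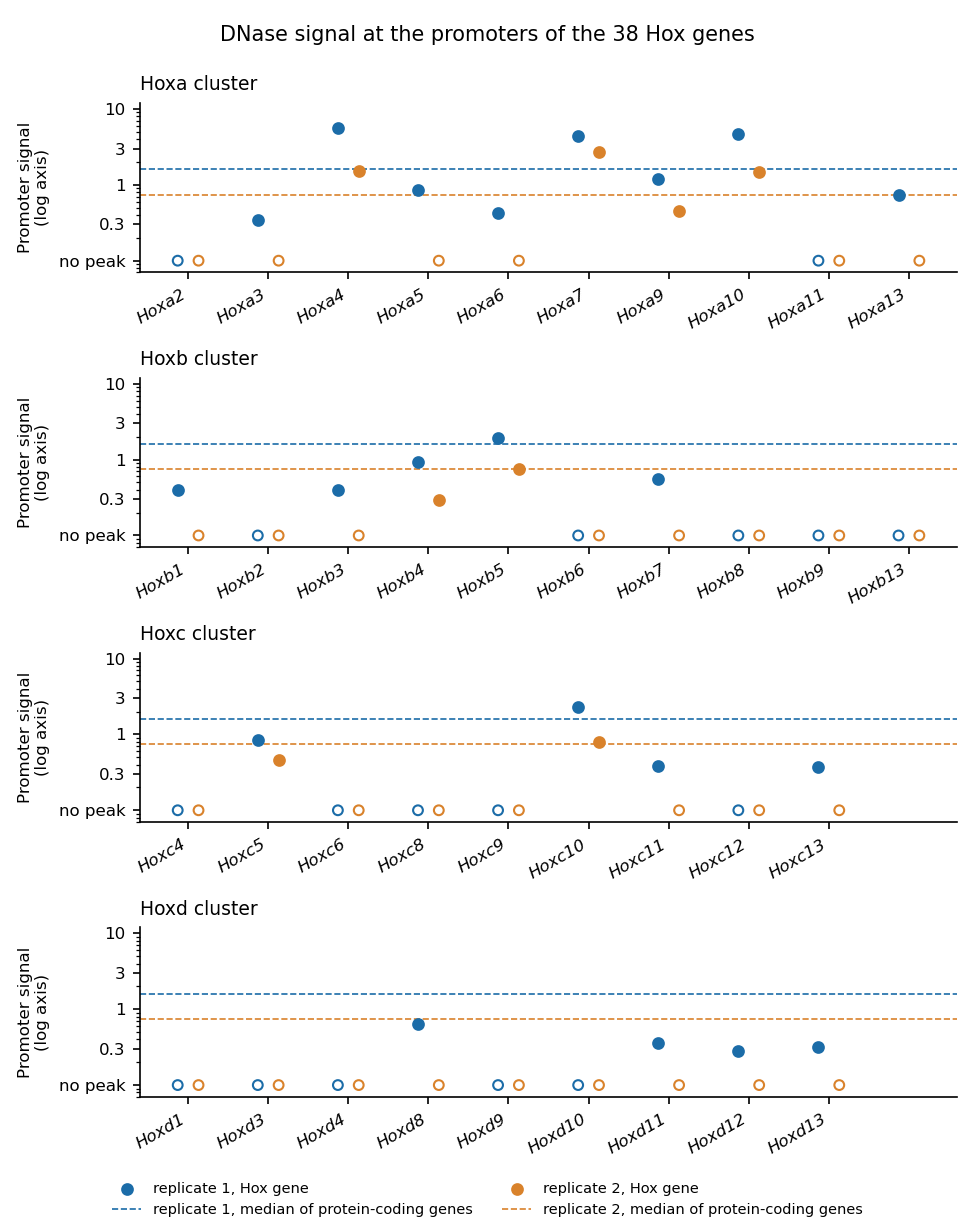
Strongest promoter peak of each of the 38 Hox genes, by cluster and in paralogue order, in replicate 1 (blue) and replicate 2 (orange), on a log axis; open circles at the bottom mark genes with no peak, and dashed lines are the medians over all protein-coding genes (1.59 in replicate 1, 0.741 in replicate 2). Peaks in both libraries are seen at 4 Hoxa, 2 Hoxb, 2 Hoxc and no Hoxd genes.

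The clusters differed in these counts. Hoxa promoters were open in both libraries at 4 of 10 genes and in replicate 1 only at 4. Hoxb had 2 of 10 in both and 3 in replicate 1 only. Hoxc had 2 of 9 in both and 2 in replicate 1 only. Hoxd had 0 of 9 in both and 4 in replicate 1 only. By paralogue class, 0 of 7 anterior genes (groups 1 to 3), 5 of 15 central genes (groups 4 to 8) and 3 of 16 posterior genes (groups 9 to 13) had a peak in both.

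Outside the promoters, single sites stood between neighbouring Hox genes, and the strongest of them exceeded every Hox promoter in each library. Peaks of the libraries that overlapped by at least 1 bp were joined into sites. The strongest of all sites in the 4 windows was chr15:102987521-102987700, in an intron of the long Hoxc5 transcript between Hoxc9 and Hoxc8, where replicate 1 had 8.2 and replicate 2 had 3.06. In the Hoxa window the strongest site outside member promoters was chr6:52257041-52257220 between Hoxa11 and Hoxa13, with 5.29 and 2.16, at a TSS of the transcript 9530018H14Rik. In the Hoxd window it was chr2:74715841-74716020, in introns of the long Hoxd3 and Hoxd4 transcripts and at a TSS of the antisense RNA Hoxd3os1, with 3.55 and 1.64.

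The sequences of 6 such sites are shown because each holds, inside the stretch protected from cutting in both libraries, letters close to the binding consensus of CTCF, the zinc finger protein that anchors chromatin loops. They are the plus strand of GRCm38 (mm10), which is the C57BL/6J genome, 5′ to 3′, and capitals mark bases inside footprints of both libraries.
Hoxc9-Hoxc8, chr15:102987521-102987700: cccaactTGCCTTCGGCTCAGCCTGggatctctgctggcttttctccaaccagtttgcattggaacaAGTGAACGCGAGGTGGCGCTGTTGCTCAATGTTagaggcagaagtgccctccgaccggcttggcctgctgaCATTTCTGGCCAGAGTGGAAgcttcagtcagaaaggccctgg
Hoxa11-Hoxa13, chr6:52257041-52257220: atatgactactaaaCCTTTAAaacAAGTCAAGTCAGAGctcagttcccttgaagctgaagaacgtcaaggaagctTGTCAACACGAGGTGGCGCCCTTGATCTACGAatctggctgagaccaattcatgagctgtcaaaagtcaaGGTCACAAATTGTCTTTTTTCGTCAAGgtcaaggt
Hoxb9-Hoxb8, chr11:96278861-96279060: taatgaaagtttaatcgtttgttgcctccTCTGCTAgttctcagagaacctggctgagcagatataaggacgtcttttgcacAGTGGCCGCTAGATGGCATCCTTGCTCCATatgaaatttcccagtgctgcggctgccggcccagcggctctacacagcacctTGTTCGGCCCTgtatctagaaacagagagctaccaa
Hoxb6 intron, chr11:96294601-96294800: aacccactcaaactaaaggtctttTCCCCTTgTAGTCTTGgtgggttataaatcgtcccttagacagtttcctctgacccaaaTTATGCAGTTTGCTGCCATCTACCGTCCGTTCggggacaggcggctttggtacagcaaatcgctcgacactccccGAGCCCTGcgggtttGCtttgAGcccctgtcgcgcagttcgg
Hoxd9-Hoxd8, chr2:74702321-74702500: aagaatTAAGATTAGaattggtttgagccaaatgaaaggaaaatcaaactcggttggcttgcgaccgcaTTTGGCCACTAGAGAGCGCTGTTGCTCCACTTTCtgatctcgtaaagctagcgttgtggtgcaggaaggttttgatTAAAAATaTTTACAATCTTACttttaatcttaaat
Hoxd3-Hoxd4 introns, chr2:74715841-74716020: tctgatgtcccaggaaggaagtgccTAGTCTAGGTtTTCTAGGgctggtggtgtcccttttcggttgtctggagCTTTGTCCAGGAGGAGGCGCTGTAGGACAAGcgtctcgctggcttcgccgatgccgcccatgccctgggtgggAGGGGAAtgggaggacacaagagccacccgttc

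In the site between Hoxb9 and Hoxb8 the footprint held an exact match to the CTCF consensus on the plus strand, CCGCTAGATGGC. The match between Hoxd9 and Hoxd8, CCACTAGAGAGC, was on the plus strand with 1 letter off, and that in the Hoxb6 intron, ACGGTAGATGGC, was on the minus strand with 1 letter off. The 3 remaining sites held plus-strand matches with 2 letters off: ACGCGAGGTGGC between Hoxc9 and Hoxc8, ACACGAGGTGGC between Hoxa11 and Hoxa13 and CCAGGAGGAGGC in the Hoxd3 and Hoxd4 introns. A search inside footprints needs a footprint overlap of both libraries of at least 12 bp, and 25 of the 30 Hox sites in both libraries had one, against 39343 of the 73150 such sites over the genome. Among sites with such an overlap, a match wholly inside it with at most 2 letters off was in 64% of the Hox sites (16 of 25), against 52.8% over the genome. With at most 1 letter off the shares were 40% and 40.1%, and with an exact match 4% and 16.8%. Over all sites in both libraries, with or without such an overlap, the shares were 53.3% and 28.4% with 2 letters off, 33.3% and 21.5% with 1, and 3.33% and 9.05% for exact matches. The search inside footprints and the allowance for letters off were chosen after the letters of these sites had been seen, so the shares are a description, and a match is not a measured CTCF site.

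Some promoter sites held such letters as well. The site at the Hoxa7 promoter, chr6:52221721-52221920, had CCAGGAGATGGC and that at Hoxa10, chr6:52240441-52240640, had CCACGAGATGGC, both on the minus strand with 1 letter off. The sites at Hoxb5 (CCGGGAGGTGGC) and Hoxc10 (CTGCTAGGTGGC) had plus-strand matches with 1 letter off, and the site at Hoxc5 (GCACCAGGTGTC) had one with 2 letters off. The sites at Hoxa4, Hoxa9 and Hoxb4 had none inside a footprint of both libraries.

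Along the 4 windows, 645 kb in all, 112 sites were found. Of these, 30 (26.8%) were in both libraries, against 49.9% of the 146575 sites over the genome. In replicate 1 only there were 79 (70.5%), against 36.5%, and in replicate 2 only 3 (2.68%), against 13.6%. Per 100 kb the windows held 4.65 sites in both and 12.2 in replicate 1 only, against 2.68 and 1.96 over the genome. Sites in both were thus denser in the Hox windows than over the genome, and those in replicate 1 only more so. The share of bases below a false discovery rate (FDR) of 0.05 for the cut rate was 4.38% in replicate 1 and 1.20% in replicate 2 over the windows, against 1.6% and 1.22% over all autosomes.

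**Figure D2:**
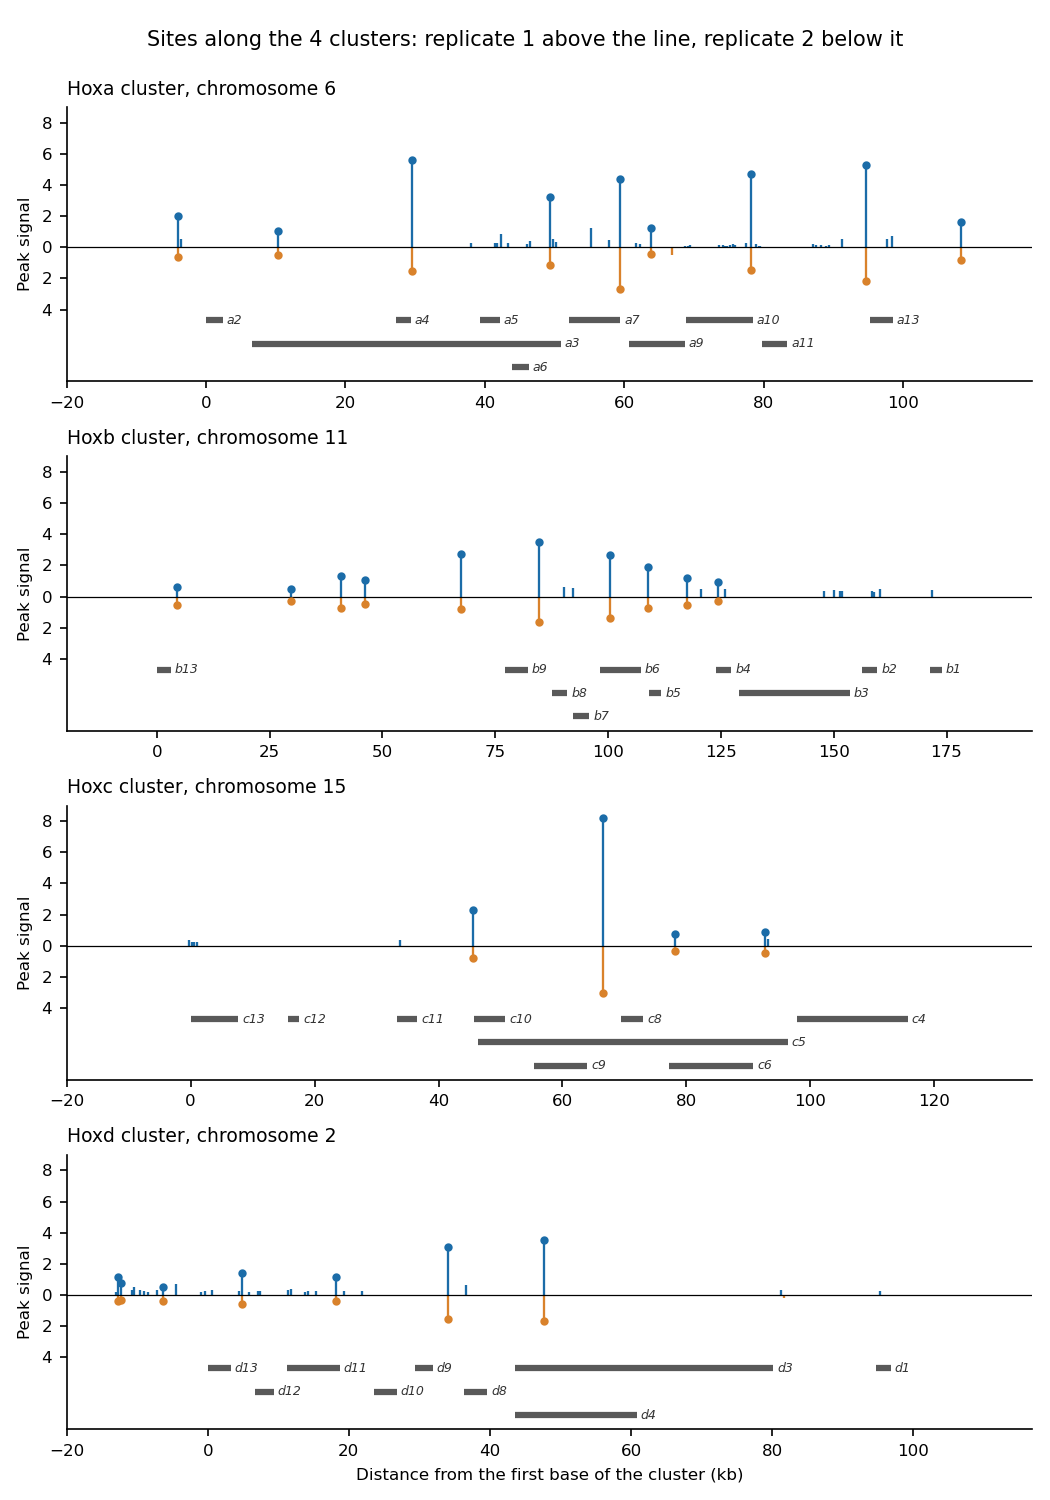
Sites along each cluster with 20 kb on either side, by distance from the first base of the cluster in kb; blue lines above zero are the signal in replicate 1, orange lines below zero the signal in replicate 2, dots mark sites in both libraries, and grey bars are the bodies of the member genes. Tall sites in both libraries are spaced along Hoxa and Hoxb, and a single site of 8.2 and 3.06 leads Hoxc. Short lines in replicate 1 crowd the Hoxa9 to Hoxa13 side and the stretch from the margin beyond Hoxd13 to Hoxd10.

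The 30 sites in both libraries were of middling strength for this tissue. Their median signal was 1.53 in replicate 1 and 0.680 in replicate 2, against 1.21 and 0.712 for the sites in both over the genome. In replicate 1, 17 of the 30 lay above the genome's median of sites in both, and in replicate 2 15 did. In neither library did any lie above the genome's percentile 90, which was 9.07 in replicate 1 and 4.01 in replicate 2. On the log2 scale, replicate 1 over replicate 2 was 1.17 in the median of the 30 sites (SD 0.40, 0.13 to 1.91), against 0.84 (SD 0.58) over the genome, and 4 of the 30 were below the genome's median. A footprint was present in each library at all 30 sites, and footprints of both libraries overlapped at 29, against 77.4% of sites in both over the genome.

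In the Hoxa window (138 kb) 9 of 46 sites were in both libraries. Besides the site near Hoxa13, the strongest outside member promoters was chr6:52211641-52211860, between the bodies of Hoxa6 and Hoxa7 and in an intron of the long Hoxa3 transcript, with 3.24 in replicate 1 and 1.11 in replicate 2. Its longest stretch without a site in both was 19.6 kb and took in the TSSs of Hoxa5 and Hoxa6. In the Hoxb window (214 kb) 10 of 23 sites were in both. The 3 strongest outside promoters were the site between Hoxb9 and Hoxb8, with 3.52 and 1.66 in replicates 1 and 2, the site in the Hoxb6 intron, with 2.65 and 1.37, and chr11:96261661-96261840 between Hoxb13 and Hoxb9 at the gene Gm53, with 2.70 and 0.825. From within Hoxb4 to the end of the window, a stretch of 69.5 kb with the most upstream TSSs of Hoxb3, Hoxb2 and Hoxb1 had no site in both.

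Among the weaker sites in both libraries, 1 lay beyond the end of Hoxa and others inside Hoxb. Beyond Hoxa13, chr6:52270601-52270800 had 1.64 and 0.821 in replicates 1 and 2. Between Hoxb13 and Hoxb9, chr11:96235021-96235220 had 1.32 and 0.724, and before Hoxb4, chr11:96311621-96311820 had 1.20 and 0.549.

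In the Hoxc window (156 kb) 4 of 10 sites were in both, the fewest of the 4 clusters. After the site between Hoxc9 and Hoxc8, the only other site in both libraries outside promoters was chr15:102999222-102999400 in introns of Hoxc6 and Hoxc5, with 0.780 and 0.364 in replicates 1 and 2. A stretch of 65.4 kb with Hoxc13, Hoxc12 and Hoxc11 had no site in both. In the Hoxd window (137 kb) 7 of 33 sites were in both. Replicate 1 alone gave 45, 22, 10 and 33 peaks in the Hoxa, Hoxb, Hoxc and Hoxd windows, and replicate 2 alone 10, 11, 4 and 8. After the site in the Hoxd3 and Hoxd4 introns came the site between Hoxd9 and Hoxd8, with 3.07 and 1.54, and chr2:74673061-74673240 between Hoxd13 and Hoxd12, with 1.41 and 0.540. Beyond the site in the Hoxd3 and Hoxd4 introns, 69.1 kb held no site in both. Among the most upstream TSSs of the members, only that of Hoxd1 lay there, and an inner TSS of Hoxd3 lay there too. The bodies of Hoxd3 and Hoxd4 also reached into this stretch, and the places of the inner TSSs of Hoxd4 are not given here.

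Among the anterior genes, which pattern the hindbrain, pharyngeal arches and neck, no promoter was open in both libraries. Hoxa3, needed for the thymus and parathyroid, had 0.349 in replicate 1 and no peak in replicate 2. Hoxb3 had 0.398 in replicate 1 and Hoxb1, a determinant of hindbrain segment identity, had 0.394, and neither had a peak in replicate 2. Hoxa2, which sets the identity of the second pharyngeal arch, and Hoxb2, Hoxd1 and Hoxd3 had no promoter peak in either library. The promoter window fixed 2 of these calls closely: the Hoxa3 peak began 487 bp from a TSS, just inside the window, and the nearest peak to Hoxd1, of 0.281 in replicate 1, began 504 bp away, just outside it.

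Among the central genes, which pattern the cervical and thoracic trunk, 5 of 15 had a promoter peak in both libraries. Hoxa4, a group 4 gene active in the neck region, had the highest promoter signal in replicate 1 of all 38 genes, 5.63, and 1.5 in replicate 2. Hoxa7, which is also active in blood progenitors, had 4.41 in replicate 1 and the highest of the 38 in replicate 2, 2.68. These levels were moderate among protein-coding genes: the percentile was 63.1 for Hoxa4 in replicate 1 and 64.7 for Hoxa7 in replicate 2. Hoxb5, a marker of long-term blood stem cells in mice, had 1.90 and 0.754 in replicates 1 and 2, at the percentiles 51.4 and 50.1. Hoxb4, known for enlarging the blood stem cell pool when overexpressed, had 0.926 and 0.297. Hoxc5 had 0.855 and 0.456. These 3 lay near or below the middle of protein-coding genes in both libraries.

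The place of the peak relative to the TSS varied. Positions count from the TSS, with negative values upstream. The middle of the Hoxa7 peak lay at 33 bp from the most upstream of 5 TSSs in both libraries, and replicate 1 had 3 peaks at this gene's promoters. At Hoxa4 the middle lay at -188 bp in replicate 1 and -208 bp in replicate 2, and at Hoxb5 at -85 and -95 bp. At Hoxb4 it lay inside the gene, at 374 and 464 bp. At Hoxc5 it lay at -102 and -114 bp from the downstream of 2 TSSs.

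The other central genes were weak or closed. Hoxa5, needed for lung development, had 0.848 in replicate 1, the highest signal among the genes with a peak in replicate 1 only. Hoxd8 had 0.630, Hoxb7 0.559 and Hoxa6 0.428 in replicate 1, and none of the 4 had a peak in replicate 2. Hoxb6, Hoxb8, Hoxc4, Hoxc6, Hoxc8 and Hoxd4 had no promoter peak. For Hoxc8, which patterns thoracic vertebrae, the strongest site of all windows nevertheless ended 2907 bp from its TSS, and for Hoxc6 a site in both libraries lay 965 bp away in replicate 1 and 976 bp in replicate 2.

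Among the posterior genes, which pattern the lumbar to tail regions and the limbs, 3 of 16 had a peak in both. Hoxa10, active in blood progenitors and in the uterus, had 4.70 in replicate 1 and 1.48 in replicate 2, at the percentiles 60.6 and 56.7. Hoxc10, which acts in the lumbar spinal cord and hindlimb, had 2.29 and 0.787, at the percentiles 53.0 and 50.4. Hoxa9, a gene of blood stem cells and of MLL leukaemias, had 1.20 and 0.456. The middle of the Hoxa10 peak lay at 244 bp from an inner TSS in replicate 1 and 254 bp in replicate 2. That of Hoxc10 lay at -195 and -205 bp, and that of Hoxa9 at -32 and -21 bp from an inner TSS.

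Among the other posterior genes, signals in replicate 1 were low. Hoxa13, which patterns the digits and the urogenital tract, had 0.724 in replicate 1, and Hoxc11 0.386, Hoxc13 0.368, Hoxd11 0.360, Hoxd13 0.319 and Hoxd12 0.285. None of these 6 had a peak in replicate 2, nor any promoter base below an FDR of 0.05 there. Hoxa11, Hoxb9, Hoxb13, Hoxc9, Hoxc12, Hoxd9 and Hoxd10 had no promoter peak in either library. No promoter peak was shared between 2 members.

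The 13 promoters open in replicate 1 only had signals of 0.285 to 0.848 with a median of 0.394. The 8 genes open in both had 0.855 to 5.63 in replicate 1. Each gene counts here with its strongest peak. By single sites the ranges overlapped, with up to 1.25 in replicate 1 only and down to 0.454 in both. Over the genome, sites of replicate 1 only were also the weaker ones, with a median of 0.296 against 1.21. The FDR lists, which come from the same libraries as the peaks, gave a similar split. Shares over all protein-coding genes were not taken for the FDR lists, nor for footprints by library. In replicate 1 a promoter base was below 0.05 at 24 genes, among them Hoxb2, Hoxd10 and Hoxd1 with no peak, and in replicate 2 at the 8 genes with a peak. Promoter footprints were listed for 19 genes in replicate 1 and for 8 in replicate 2, and for the same 8 in both, against 59.2% of protein-coding genes.

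In the median, Hox promoters were richer in CpG than those of all protein-coding genes, whether open or closed, but those of Hoxb were not. The observed over expected CpG ratio in the window around the most upstream TSS had a median of 0.664 over the 38 genes, against 0.552 over protein-coding genes. The medians were 0.593 for the 8 genes open in both libraries, 0.704 for the 13 open in replicate 1 only and 0.689 for the 17 closed ones. By cluster they were 0.664 in Hoxa, 0.472 in Hoxb, 0.651 in Hoxc and 0.721 in Hoxd. The peaks of Hoxa9, Hoxa10 and Hoxc5 lay nearest to a TSS other than the most upstream one. Of the 31 Hox genes with a ratio of at least 0.5, 7 were open in both, against 89% of the protein-coding genes with such a ratio, and 11 in replicate 1 only, against 6.62%. The shares of protein-coding genes include the Hox genes.

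RefSeq promoters, spanning 250 bases before to 50 after a start in GRCm38.p6, were matched for 22 of the 38 genes. None of the 22 overlapped a site in both libraries, against 57.5% of the protein-coding genes in that table, and those of Hoxa5, Hoxa6, Hoxa10 and Hoxa13 overlapped a peak of replicate 1. No promoter sequence is therefore printed. The starts of that table can differ from the TSSs used above: the site in both libraries at Hoxa7 covered its most upstream GENCODE TSS but not its RefSeq promoter. At Hoxa10 the overlapping peak of replicate 1 was not that of its site in both. The share of the table with a peak of replicate 1 was not counted. Without an entry were Hoxa4, Hoxb2, Hoxb3, Hoxb5, Hoxb6, Hoxb7, Hoxb9, Hoxb13, Hoxc5, Hoxc6, Hoxc8, Hoxc9, Hoxc10, Hoxc11, Hoxc12 and Hoxc13, which include 4 of the 8 genes open in both libraries.

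The sites of replicate 1 only were weak and lay mostly on the posterior sides of Hoxa and Hoxd. Their signals ran from 0.0563 to 1.25 with a median of 0.274, against 0.296 for such sites over the genome. Of the 79, 27 were at member promoters, and 54 held a footprint of replicate 1 (70.9% of such sites over the genome did). Within 500 bp of a TSS of any gene lay 35 of the 79, against 9067 of 53516 such sites over the genome. In the shorter peak list of replicate 1 were 30, and 1 had a base below an FDR of 0.05 in replicate 2. Shares over the genome were not taken for these last 2 counts. From the body of Hoxa9 to the outer end of its window there were 24 in 57.8 kb, or 41.5 per 100 kb, and 12 in the rest of the Hoxa window, or 14.9 per 100 kb. From Hoxd9 to the outer end of its window there were 22 in 51.9 kb, or 42.4 per 100 kb, and 3 in the rest, or 3.53. The 22 include sites in the margin beyond Hoxd13, some of them in Evx2, such as chr2:74657681-74657980 with 0.521. On the Hoxb9 to Hoxb13 side there was none and on the rest of Hoxb 12. On the Hoxc9 to Hoxc13 side there were 5 and on the rest of Hoxc 1. This division was made after the positions had been seen.

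Within Hoxa, 16 sites of replicate 1 with a signal below 0.2 lay between Hoxa9 and the region beyond Hoxa11, in 20.7 kb (chr6:52231028-52251754). They made up 35.6% of the 45 peaks of replicate 1 in that window, against 0% of the 22 in Hoxb, 0% of the 10 in Hoxc, 3.03% of the 33 in Hoxd and 13.3% of all peaks of replicate 1. The cutoff of 0.2 was not varied, and these shares depend on it. On the posterior sides, the median of the sites of replicate 1 only was 0.144 in Hoxa, 0.266 in Hoxc and 0.27 in Hoxd. The smallest FDR per site of the 16 ranged from 4.42e-39 to 0.0152, and 6 of the 16 held a footprint. All of the 16 except chr6:52231467-52231590 and chr6:52251301-52251353 were in the shorter peak list of replicate 1. Among all 79 sites of replicate 1 only, 30 were in that list, so a low signal here did not go with absence from it. None held a footprint or a base below an FDR of 0.05 in replicate 2. These sites were thus seen in 1 library.

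**Figure D3:**
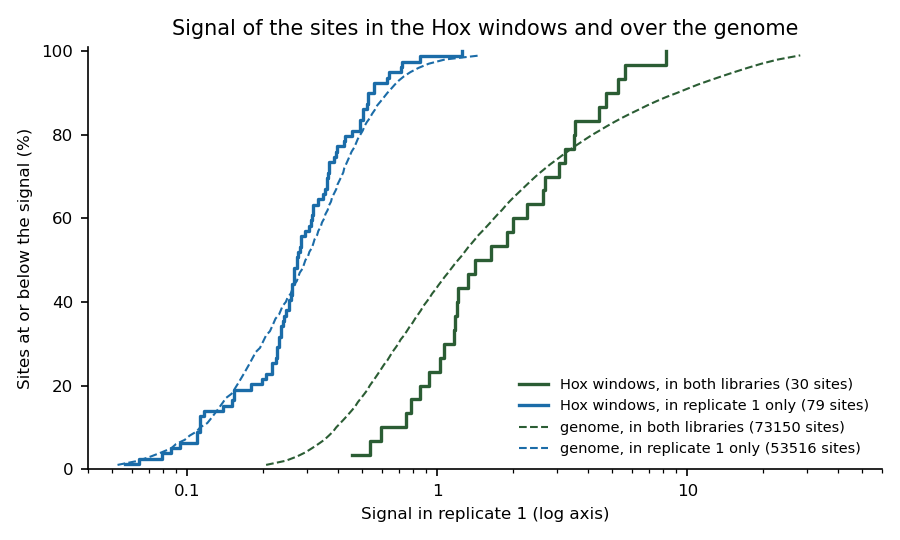
Cumulative share of sites by signal in replicate 1 (log axis) for the Hox windows (solid steps) and the genome (dashed lines, percentiles 1 to 99), for sites in both libraries (green) and in replicate 1 only (blue). Hox sites in both libraries run from 0.454 to 8.2 without the strong upper tail of the genome, and Hox sites of replicate 1 only follow the genome's curve at low signal.

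By window, the strongest site of replicate 1 only was 1.25 at chr6:52217489-52217656 at an inner TSS of Hoxa7, 0.641 at chr11:96284540-96284695 in Hoxb8, 0.424 at chr15:103014282-103014380 in the Hoxc5 promoter and 0.713 at chr2:74663681-74663860 between Evx2 and Hoxd13. The 3 sites of replicate 2 only were 0.511 at chr6:52229158-52229327 in Hoxa9, 0.335 at chr11:96318831-96318893 in Hoxb4 and 0.205 at chr2:74749961-74750011 in the noncoding gene Haglr. The Hoxa9 site had 2 footprints in replicate 2 and none in replicate 1.

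Other short consensus sequences were searched on both strands in the 200 bp around the middle of each site in both libraries. The CCAAT box (CCAAT) was in 13 of the 30 Hox sites (43.3%), against 21.6% of sites in both over the genome, and the GC box (GGGCGG) in 11 (36.7%), against 23.5%. Both shares differed by position. At the 13 Hox sites within 500 bp of a TSS of any gene, the GC box was in 46.2%, against 48.5% over the genome. CCAAT was in 61.5% of these 13, against 24.5%. At the 17 Hox sites further away, the GC box was in 29.4%, against 11.1%, and CCAAT in 29.4%, against 20.2%. The GATA consensus (AGATAA) was in 3 (10%), against 8.39%, the MEIS consensus (TGACAG) in 4 (13.3%), against 14.5%, and the E-box CAGCTG in 3 (10%), against 15.5%. The CREB consensus (TGACGTCA) was in the Hoxc10 promoter site and in no other, 3.33% against 0.964%. No letters of the DR5 retinoic acid element, of PBX-HOX (TGATTGAT or TGATTTAT), of ETS (GAGGAAGT), of YY1 (AAGATGGCG) or of NRF1 (GCGCATGCG) were in these windows, against 0.0643%, 0.663%, 3.67%, 0.774% and 0.865%. In the same windows the CTCF consensus was in 2 of the 30 exactly (6.67%, against 10.9%) and in 13 with at most 1 letter off (43.3%, against 33.2%), and in all 13 the match overlapped a footprint in both libraries, against 82.5% of such sites over the genome.

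Chromatin regulators and cofactors of the Hox genes had higher median promoter signals than the Hox genes. All 21 Polycomb genes were open in both libraries, with a median signal of 12.7 in replicate 1 and 4.80 in replicate 2, led by Pcgf1 (44.3 and 17.9) and Phf1 (28.4 and 11.0). All 13 Trithorax and MLL genes did, led by Dot1l (34.6 and 11.1) and Wdr5 (20.3 and 11.8), and all 7 genes of cluster architecture, led by the cohesin genes Smc3 (36.0 and 14.7) and Stag1 (29.1 and 14.0). Of the HOX cofactors, which bind DNA together with HOX proteins, 8 of 9 did, led by Pknox1 (28.9 and 9.76) and Pbx3 (25.8 and 9.99), while Meis2 had 0.593 in replicate 1 and no peak in replicate 2. The highest Hox value, 5.63 at Hoxa4, was below the replicate 1 medians of these Polycomb, Trithorax and architecture genes. Of all protein-coding genes, 60.7% were open in both libraries, as were 89% of those with a CpG ratio of at least 0.5. The median CpG ratio was 0.801 in the Polycomb list and 0.805 in the Trithorax and MLL list. It was 0.928 in the architecture list and 0.61 in the cofactor list.

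Of the 11 upstream regulators, 7 (63.6%) were open in both, near the 60.7% of all protein-coding genes, led by Egr2 (6.8 and 2.60) and Rxra (4.93 and 1.77), and Cdx1, Cdx2, Cdx4 and Cyp26a1 had no peak. Other developmental homeobox genes came closest to the Hox genes: 12 of 33 (36.4%) were open in both, 12 in replicate 1 only, 1 in replicate 2 only and 8 in neither. Their medians were 0.424 in replicate 1 and 0 in replicate 2, and Dlx1, a gene of forebrain and jaw development, had 1.26 and 0.837. The 6 homeobox genes used in blood were all open in both, led by Pou2f1 (19 and 7.33) and Cux1 (6.84 and 2.73).

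**Figure D4:**
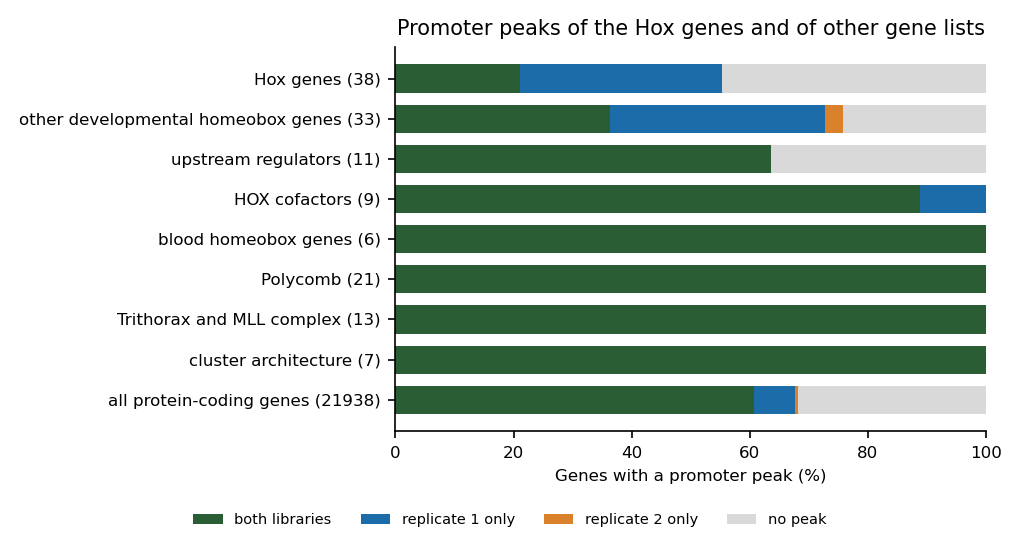
Share of genes (percent) whose promoter was open in both libraries, in replicate 1 only, in replicate 2 only or in neither, for the 38 Hox genes (top), 7 other gene lists and all protein-coding genes (bottom), with the number of genes in brackets. The Hox genes have the smallest share in both libraries, 21.1%, followed by the other developmental homeobox genes at 36.4%.

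The protein-coding neighbours of the clusters were mixed. The adaptor gene Skap2, 150 kb beside Hoxa, had 22.5 in replicate 1 and 8.96 in replicate 2, whereas the homeobox gene Evx1, 52.6 kb beyond the other end, had 0.334 and no peak. Calcoco1 and Smug1 beside Hoxc had 16.7 and 8.21, and 6.61 and 3.27. Ttll6 beside Hoxb had 1.20 and 0.523, and Skap1 beyond the other end had 0.435 and no peak. Beside Hoxd, the homeobox gene Evx2 had 0.319 and no peak, and Mtx2, a mitochondrial import gene, had 3.08 and 1.54. Inside the windows, 6 microRNA genes (Mir196b, Mir196a-1, Mir196a-2, Mir10a, Mir10b and Mir615), named after their values were seen, had no peak within 500 bp of the annotated start in either library. Their annotated entries are short, such as chr6:52230081-52230165 for Mir196b, so a promoter further away was not examined. No share over other microRNA genes was taken.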

How the data were processed

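DNase-seq of 2 libraries was used. Peak signal, as deposited by the authors, is a cut density scaled per library, and the FDR of the cut rate (a q-value per stretch of bases, listed below 0.05) was also deposited by the authors, as were footprints, whose value column (another quantity, the constant 0.01 in the deposited lists) was not used. Each file came from its own library on mm10, per the deposited description. The aligner, callers and read depth were not given in the sources used here. No intervals were computed. The longer peak list of each library was used. Peaks overlapping by 1 bp were merged into sites with the strongest signal per library. TSSs came from GENCODE M21, sequences from the GRCm38.p6 reference. All 38 members were named, with up to 3 of the strongest reported sites outside promoters per window (by mean signal), the strongest site of each library alone, the flanking genes and up to 2 leading genes of each list. Some items are not reported here. Members and lists were chosen with earlier results of these data known. The overlap functions were tested on simulated data. Computation used Python 3.11.15, numpy 2.4.6, pandas 2.3.3 and matplotlib 3.10.9.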

Additional observations from a re-analysis of the deposited data

How the results depend on the processing

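No paired analysis was possible because the 2 libraries form 1 group. Of 81 values under alternatives, 52 stayed within 1.5 times the value reported for counts, or within the spread between the libraries for other values. The other 29 include the shares with letters off the CTCF consensus, which were counted as moved without applying either limit. That spread is wide for the bases below the FDR threshold, whose share was 2.42% in replicate 1 (4.38% reported) and 0.795% in replicate 2 (1.20% reported) at an FDR of 0.001. The number of Hox genes open in both libraries (8) was 5 with peaks at or above the median signal and 4 with a 100 bp window, and the number open in at least 1 (21) was 13 with the shorter list, 11 at or above the median signal and 12 with the 100 bp window. The median promoter signal of replicate 1 (0.334) was 0 with the shorter list and with the 100 bp window. Sites in both libraries at or above the median signal numbered 5 in Hoxb, 2 in Hoxc and 2 in Hoxd. In Hoxd they numbered 4 with the shorter list and 4 without the margin. Sites in 1 library only (82) numbered 40 with the shorter list and 18 at or above the median signal. Genes with a promoter footprint in both numbered 5 with footprints of at least 15 bp and 4 with the 100 bp window. Leaving out a replicate gave 8 to 21 genes open for both counts and 8 to 19 with a footprint. In place of sites in both it gave 10 to 45 peaks in Hoxa, 11 to 22 in Hoxb, 4 to 10 in Hoxc and 8 to 33 in Hoxd. The higher of each pair came without replicate 2. By construction, fewer peaks enter with the shorter list, the higher signal and the narrow window, and for the others the cause was not tested. Hoxa7 and Hoxb5 were open in both libraries under all 6 alternatives to the peak list, window or TSSs. The allowance of letters off the CTCF consensus and the search inside footprints were chosen after seeing the data. The depth behind the peaks is unknown, and 2 libraries limit every statement to a description.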
